A study of Mus musculus with 6 samples.

Results

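The urea cycle and ammonia genes described here are 10 genes chosen by name: Cps1, Otc, Ass1, Asl, Arg1, Nags, Slc25a13, Slc25a15, Glud1 and Gls2. All 10 are listed once among the 55802 distinct gene symbols of the count files, and all 10 passed the filter on low counts that left 17662 genes for testing. They were measured by RNA sequencing of liver from C57BL/6 male mice reared for 71 weeks. PS-MP libraries (3) came from mice fed chow containing polystyrene microplastic, and control libraries (3) came from mice fed normal chow. A shared protocol field of the labels names PS-MP chow for all 6 samples, so the diet was taken from the sample titles and the treatment field. The dose, the particle size, the date and hour of collection, and whether each library is 1 animal are not stated in the labels, so p-values measure only the spread between these samples. The question the series states is how prolonged PS-MP exposure affects gene expression in the liver.

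The urea cycle turns toxic ammonia into urea and runs almost wholly in hepatocytes, above all in those near the portal vein. Its first steps lie in mitochondria, where Cps1 joins ammonia and bicarbonate into carbamoyl phosphate and Otc adds it to ornithine. The later steps lie in the cytosol, where Ass1, Asl and Arg1 make argininosuccinate, arginine and then urea. Gls2 and Glud1 release ammonia from glutamine and glutamate in mitochondria, while Glul, the glutamine synthetase of cells around the central vein, captures the ammonia that escapes the cycle.

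Promoter sequence was available for 6 of the 10 members in a RefSeq table of the earlier build GRCm38.p6. The 3 shown were chosen by their levels in these data. Ass1 had the highest level of the set per length, Otc had a library order unlike the other enzymes, and Slc25a13 had all 3 PS-MP libraries below the control libraries. Each line holds the 250 bases before the annotated start, 5′ to 3′ on the gene's strand, with capitals for any match, on either strand, to the TATA box (TATAAA), the CCAAT box, the GC box (GGGCGG) or the cAMP response element (TGACGTCA). Ass1 lies at chr2:31470020-31470269 on the plus strand, Otc at chrX:10252055-10252304 on the plus strand and Slc25a13 at chr6:6217174-6217423 on the minus strand.
Ass1: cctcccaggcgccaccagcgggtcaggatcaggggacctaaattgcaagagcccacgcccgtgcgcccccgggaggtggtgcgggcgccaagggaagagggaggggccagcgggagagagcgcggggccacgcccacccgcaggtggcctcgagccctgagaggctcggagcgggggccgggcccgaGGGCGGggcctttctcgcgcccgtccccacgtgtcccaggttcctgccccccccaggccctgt
Otc: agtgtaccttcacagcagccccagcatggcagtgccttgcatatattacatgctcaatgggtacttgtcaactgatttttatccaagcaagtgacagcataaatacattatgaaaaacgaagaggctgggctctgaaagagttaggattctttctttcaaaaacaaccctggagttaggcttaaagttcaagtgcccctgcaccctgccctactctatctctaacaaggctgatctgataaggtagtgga
Slc25a13: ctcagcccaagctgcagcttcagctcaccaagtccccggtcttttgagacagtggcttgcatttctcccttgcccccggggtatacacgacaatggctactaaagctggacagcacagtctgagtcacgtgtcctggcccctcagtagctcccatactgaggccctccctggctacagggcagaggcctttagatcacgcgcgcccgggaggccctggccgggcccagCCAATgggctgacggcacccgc

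The Ass1 window held 1 GC box match, beginning 63 bases before the start. The Slc25a13 window held 1 CCAAT, beginning 22 bases before the start, and the Otc window held none of the 4 motifs. Of the windows not shown, that of Glud1 held 3 GC box matches and that of Nags 2. Slc25a15 held 5 and 2 in separate windows, and these windows held none of the other motifs. Among all 32851 promoter windows of the same length, 32.74% held the GC box letters, 33.85% those of the CCAAT box, 12.37% those of the TATA box and 1.55% those of the cAMP response element, so the matches are a description only.

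The libraries held 79081889, 79317092 and 79691824 counts for PS-MP and 75897165, 68357478 and 112566641 for control. Counts were scaled by the trimmed mean of M values (TMM) and are given as CPM. Each CPM value is relative to the total counts of its library multiplied by the TMM factor of that library. The factors were 1.042, 1.114 and 1.075 in PS-MP and 0.957, 0.891 and 0.940 in control, which do not overlap. Scaling by library size alone, used below as an alternative, leaves these factors out. Reads of 18S ribosomal RNA (Rn18s-rs5) took between 0.387% and 1.14% of counts in PS-MP and between 1.15% and 11.2% in control. The hepatocyte markers, albumin among them, summed to between 86074 and 106760 CPM in PS-MP and between 79502 and 96224 CPM in control, against at most 848 CPM in any library for each list of non-parenchymal or blood cell markers.

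No urea cycle or ammonia gene passed the test between diets. With edgeR's quasi-likelihood test, 0 of the 10 members had an adjusted p under 0.05, beside 0.0113% of all genes tested, and the smallest adjusted p among members was 0.923. At an unadjusted p under 0.05 the members counted 0 of 10, where 5.38% of all genes lay, and DESeq2 and limma-voom also called 0 of 10. With library size alone 2 members had an unadjusted p under 0.05, and without PS-MP replicate 2, or without PS-MP replicate 3, 1 did. Log2 fold changes, PS-MP minus control, lay above 0 for 6 members and below 0 for 4, with a median of 0.10, beside a median of 0.02 over all genes, of which 52.8% lay above 0.

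The size of change that lies outside each interval can be read more closely. The 95% interval of the log2 fold change lay between -1 and 1, that is inside a 2-fold change, for 10 of 10 members and for 53.6% of all genes tested. It lay inside a 1.5-fold change for 4 members (Arg1, Nags, Slc25a13 and Glud1) and for 24.4% of all genes. With library size alone 7 members lay inside 2-fold and 2 inside 1.5-fold, and without control replicate 1 these counts were 8 and 2.

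**Figure D1:**
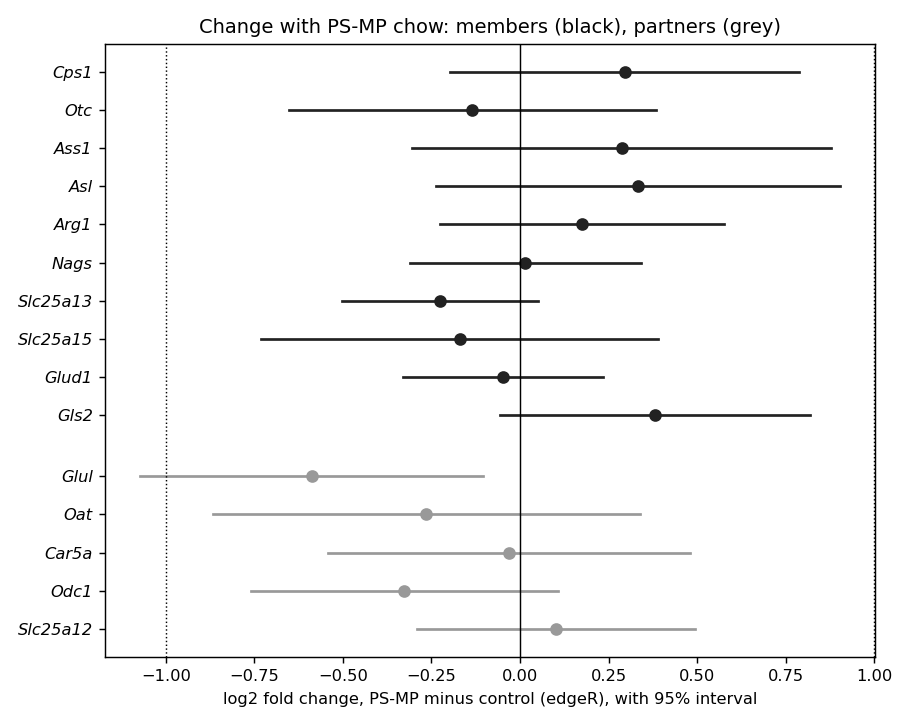
Log2 fold change of each gene (x axis, PS-MP minus control) with its 95% interval, for the 10 members in black and 5 partner genes in grey; dotted lines mark a 2-fold change. All 10 member intervals lie between the dotted lines and cross 0, while the interval of Glul, -1.07 to -0.10, does not cross 0.

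Cps1, the first and rate-setting enzyme of the cycle, had 2883, 2041 and 1811 CPM in the PS-MP libraries, against 1971, 1789 and 1729 CPM in the control libraries. PS-MP replicate 1 stood highest and PS-MP replicate 3 lay within the control range, so the diets overlapped. The log2 fold change was 0.30 (SE 0.21, 95% interval -0.20 to 0.79, edgeR adjusted p = 0.984), a fold between 0.872 and 1.73.

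Otc, which makes citrulline from ornithine, had 260, 371 and 274 CPM in PS-MP, against 253, 380 and 362 CPM in control. Each diet held both high and low libraries. Its log2 fold change was -0.14 (SE 0.22, interval -0.65 to 0.38, edgeR adjusted p = 0.9998), and it turned to 0.089 when counts were scaled by library size alone.

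The cytosolic enzyme Ass1, which joins citrulline and aspartate, had 3709, 2260 and 2781 CPM in PS-MP, against 2845, 1866 and 2460 CPM in control. The highest library was again PS-MP replicate 1, and the other two lay inside the control range. The log2 fold change was 0.29 (SE 0.25, interval -0.30 to 0.88). Ass1 shares 99.5% of 1240 aligned bases with Gm5424, a processed pseudogene, so some reads may be split between them. Gm5424 held 6755, 3419 and 3712 counts in PS-MP and 1166, 2103 and 5013 in control, or between 0.564% and 2.21% of the Ass1 counts.

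Asl, which splits argininosuccinate, had 68.3, 38.4 and 58.5 CPM in PS-MP, against 52.2, 39.8 and 39.2 CPM in control. The second PS-MP library was the lowest of all 6 and the first the highest, and the log2 fold change was 0.33 (SE 0.24, interval -0.24 to 0.90). Its interval reached furthest above 0 of the 10.

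Arg1, the liver arginase that releases urea, had 1301, 1185 and 984 CPM in PS-MP, against 1139, 897 and 1035 CPM in control. The diets overlapped, with a fitted log2 fold change of 0.18 (SE 0.17, interval -0.23 to 0.58). Macrophages can also make Arg1, and the 11 Kupffer cell and macrophage markers summed to between 173 and 191 CPM in PS-MP and between 118 and 143 CPM in control. Of these markers 6 of 11 had all PS-MP libraries above all control libraries, beside 6.24% of all genes tested, none of the 11 was at 0 in all libraries, and their part in the Arg1 level was not tested. In bulk liver, more cells of a type and more RNA per cell cannot be told apart. Arg2, the mitochondrial arginase of other tissues, held 16, 9 and 0 counts in PS-MP and 8, 14 and 12 in control, and fell under the filter.

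Without PS-MP replicate 1 the log2 fold changes of the 4 enzymes with values above 0 were smaller, at 0.074 for Cps1, 0.079 for Ass1, 0.15 for Asl and 0.082 for Arg1. With another library left out they reached at most 0.42 for Cps1, 0.44 for Ass1, 0.54 for Asl and 0.27 for Arg1. Library size alone gave 0.50 for Cps1, 0.48 for Ass1, 0.53 for Asl and 0.38 for Arg1.

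**Figure D2:**
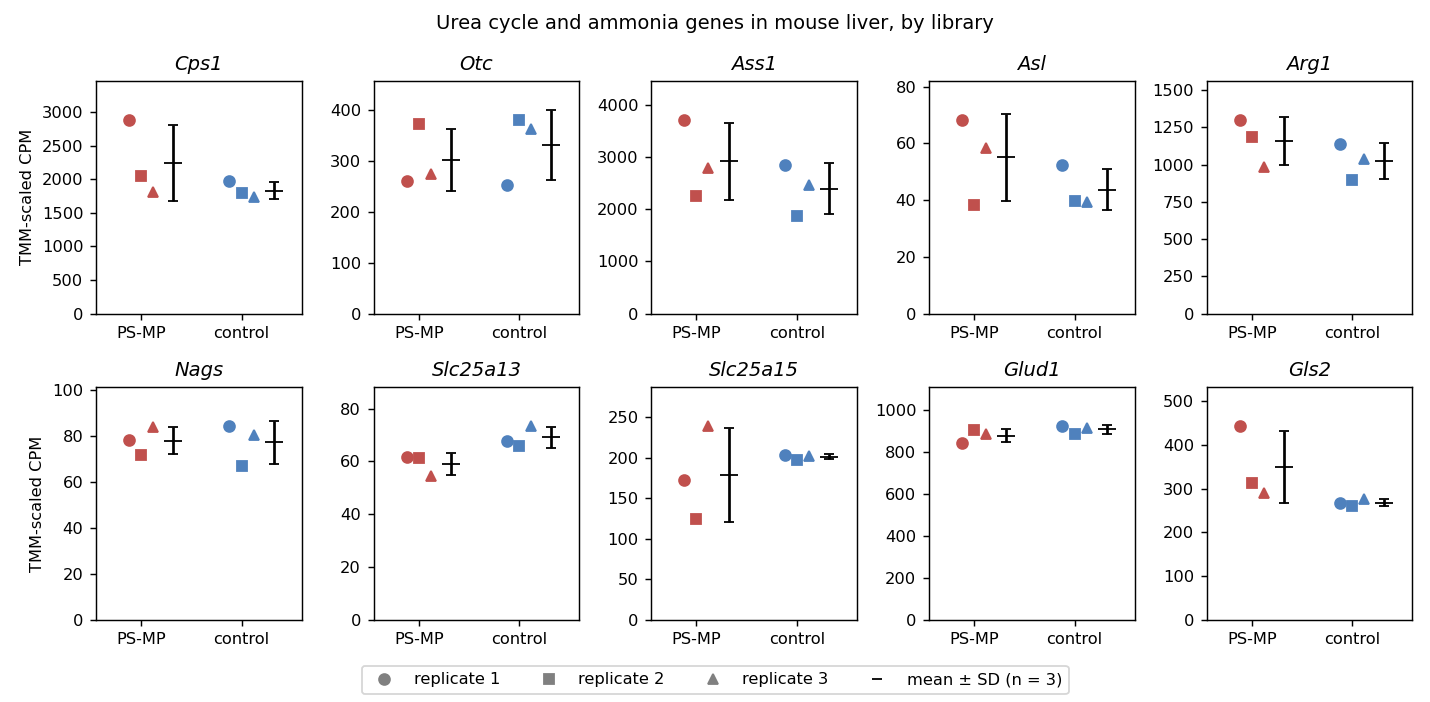
TMM-scaled CPM (y axes, from 0) of each member in the 3 PS-MP and 3 control libraries, with marker shape for the replicate number and a black bar for mean ± SD. The diets overlap in 8 of 10 panels, while every PS-MP library of Gls2 lies above, and every PS-MP library of Slc25a13 lies below, the control libraries.

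The 5 enzymes together took 0.856%, 0.656% and 0.635% of all counts in PS-MP, against 0.599%, 0.443% and 0.529% in control, which do not overlap (two-sided exact permutation p = 0.1, the smallest that 3 against 3 libraries allow). After TMM scaling their summed level was 8220, 5895 and 5909 CPM in PS-MP, against 6260, 4972 and 5625 CPM in control. The scaled sums overlapped, since control replicate 1 lay above PS-MP replicates 2 and 3. On the log2 scale the difference of means was 0.24 (exact permutation p = 0.4), it was 0.45 with library size alone (exact permutation p = 0.1), and it was 0.078 without PS-MP replicate 1 (exact permutation p = 0.7). With 18S and mitochondrially encoded genes removed before TMM scaling the difference was 0.24. The 18S shares given above also stood apart between the diets, as did the number of genes detected, at 24004 to 24763 in PS-MP and 23042 to 23791 in control. The 5 red cell markers summed to between 571 and 848 CPM in PS-MP and between 263.2 and 504.3 CPM in control. The 6 neutrophil markers, at low levels, summed to between 1.46 and 6.22 CPM in PS-MP and between 0.681 and 0.969 CPM in control. Wholly higher in PS-MP were 2 of 5 red cell and 3 of 6 neutrophil markers, beside 6.24% of all genes tested. The sums of the endothelial, stellate cell, cholangiocyte and adipocyte markers overlapped between the diets. None of these markers was at 0 in all libraries, and the part of 18S, of gene detection and of these cells in the unscaled difference was not tested.

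Among the genes that supply the cycle, Nags makes N-acetylglutamate, the activator that the Cps1 enzyme needs. Nags had 78.2, 71.7 and 83.6 CPM in PS-MP, against 84.2, 66.6 and 80.3 CPM in control. The PS-MP libraries lay wholly inside the control range, and the log2 fold change was 0.02 (SE 0.14, interval -0.31 to 0.34). Nags overlaps Gm11586, an antisense gene whose counts came to between 0.531% and 1.12% of those of Nags. The labels do not say whether strand was used in counting, so whether reads of the pair were kept apart is not known.

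Slc25a13 encodes citrin, the mitochondrial carrier that brings aspartate to the cytosol for the Ass1 step. It had 61.7, 61.1 and 54.3 CPM in PS-MP, against 67.8, 65.9 and 73.4 CPM in control. All 3 PS-MP libraries lay below the 3 control libraries, as for 4.99% of all genes tested, with a fitted log2 fold change of -0.23 (SE 0.12, interval -0.50 to 0.05, edgeR adjusted p = 0.933). The direction held in all 6 fits that left out a library, between -0.26 and -0.18, and the value was -0.015 with library size alone, a scaling that moved the median of all genes to 0.23. Its paralog Slc25a12, the aspartate carrier of muscle and brain, had 12.5, 11.5 and 9.83 CPM in PS-MP, against 11.6, 9.76 and 10.2 CPM in control.

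The ratio of Slc25a13 CPM to Slc25a12 CPM within a library, which no scaling can move and which compares libraries rather than the 2 genes, was 4.93, 5.30 and 5.52 in PS-MP, against 5.83, 6.76 and 7.20 in control. The diets did not overlap, with a mean log2 difference of -0.33. This ratio and those given later, from 6 ratios tried, were chosen after the values were seen. They are descriptions, and permutation tests of them are not used as support.

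Slc25a15, the carrier that exchanges ornithine and citrulline across the mitochondrial membrane, had 173, 124 and 239 CPM in PS-MP, against 204, 198 and 202 CPM in control. The control libraries lay within a factor of 1.03 of each other, while the PS-MP libraries lay on both sides of them and spanned a factor of 1.93. The log2 fold change was -0.17 (SE 0.23, interval -0.73 to 0.39), 0.039 without PS-MP replicate 2 and 0.037 with library size alone.

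Of the genes that release ammonia, Glud1, the glutamate dehydrogenase, had 844, 907 and 885 CPM in PS-MP, against 925, 887 and 914 CPM in control. The libraries of either diet lay within a factor of 1.07 of each other. Its log2 fold change was -0.05 (SE 0.12, interval -0.33 to 0.24), or 0.17 with library size alone. Changes beyond a fold of 0.795 or 1.18 lay outside the interval under TMM scaling. Glud1 shares 97.6% of 656 aligned bases with the pseudogene Glud-ps and 97.6% of 287 with Gm43444. These held at most 0.0476% and 0.423% of the Glud1 counts. How reads matching both were counted is not stated, and the effect of this sharing on Glud1 was not tested.

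Gls2, the liver-type glutaminase that feeds ammonia to the cycle in periportal cells, had 443, 313 and 291 CPM in PS-MP, against 266, 261 and 276 CPM in control. All 3 PS-MP libraries lay above the 3 control libraries, as for 6.24% of all genes tested, with the first PS-MP library far above the rest. The log2 fold change was 0.38 (SE 0.18, interval -0.06 to 0.82, edgeR adjusted p = 0.923), 0.17 without PS-MP replicate 1 and 0.59 with library size alone. Spryd4, which overlaps Gls2 on the other strand, held between 5.73% and 8.45% of the Gls2 counts. Whether reads of this pair were kept apart by strand is likewise not known.

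Thus 1 of 10 members stood wholly higher and 1 wholly lower in PS-MP, beside 11.2% of all genes tested in either direction. No test was made of this count of 2 of 10.

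The levels of the 10 genes spanned a wide range when divided by the length of their exons (GENCODE M21, an annotation of an earlier build than the submitters' GRCm39). Ass1 led with 1720 ± 433 CPM per kb in PS-MP and 1409 ± 291 in control (SD, n = 3 each). Arg1 followed with 783 ± 109 CPM per kb in PS-MP and 693 ± 82.3 in control, and Cps1 with 404 ± 102 in PS-MP and 329 ± 22.6 in control. Glud1 had 259 ± 9.46 CPM per kb in PS-MP and 268 ± 5.80 in control, ahead of Gls2, Otc, Slc25a15 and Nags. Slc25a13 had 18.9 ± 1.32 CPM per kb in PS-MP and 22.1 ± 1.24 in control, and Asl closed the order with 18.5 ± 5.11 in PS-MP and 14.7 ± 2.46 in control.

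With the merged exons of all protein-coding transcripts as the length, the order by mean level was the same in PS-MP and in control. The merged exons came to 4241 bases for Otc and 2983 for Asl, and the longest transcript to 2997 and 2413. With another length the places of Otc and Asl among their neighbours could differ. Over the 6 libraries the ranges of Otc and Slc25a15, of Slc25a15 and Nags, and of Slc25a13 and Asl overlapped, while those of the other neighbours in this order did not. Within a library, Otc was above Slc25a15 in 5 of 6, Slc25a15 above Nags in 6 of 6 and Slc25a13 above Asl in 4 of 6. Asl thus stood far below both enzymes beside it in the cycle, Ass1 before it and Arg1 after it. No transcript of another gene in GENCODE M21 shared at least 90% identity over at least 100 bases with Asl, and no gene there overlaps it. The annotation and counter behind the deposited counts are not stated, and the cause of the low Asl level was not tested.

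**Figure D3:**
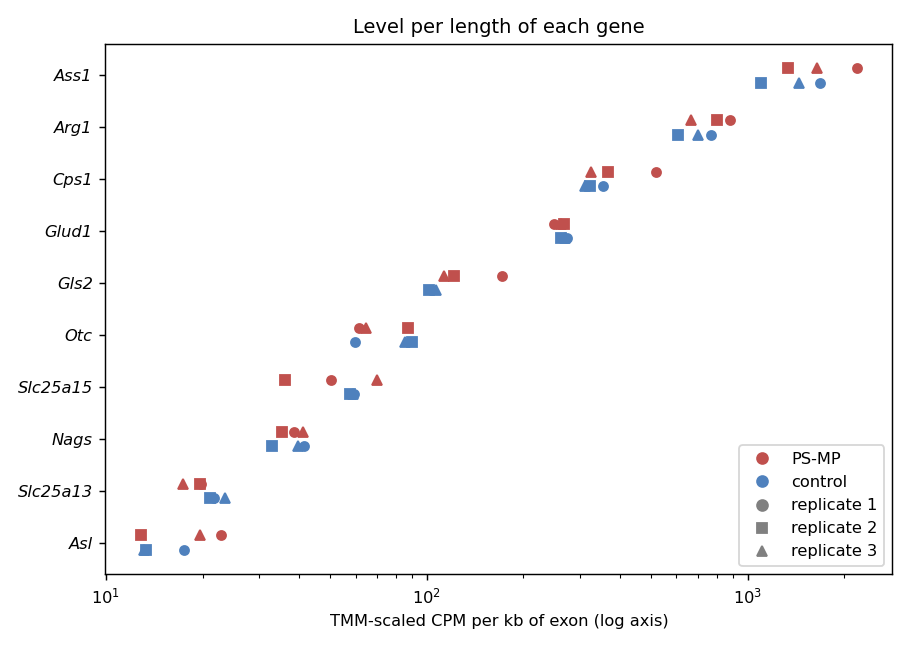
TMM-scaled CPM per kb of exon (log x axis) of each member in each library, PS-MP above control within each row and marker shape for the replicate number. Ass1 leads and Asl closes the order of means in both diets, and Asl lies close to Slc25a13, at means of 18.5 and 18.9 CPM per kb in PS-MP.

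The members varied more among PS-MP than among control libraries. The coefficient of variation of CPM was wider in PS-MP for 8 of 10 members, with a median of 21.9% in PS-MP and 9.37% in control, where over all genes tested the medians were 20.1% and 21.9% and 43.8% were wider in PS-MP. These are descriptions with 3 libraries a diet, and no test was made of the difference in spread.

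PS-MP replicate 1 stood highest most often. It had the highest level of the 6 libraries for 5 members, Cps1, Ass1, Asl, Arg1 and Gls2, and its centred log2 CPM was 0.52, 0.52, 0.50, 0.27 and 0.55 for these genes. Control replicate 2 had the lowest level for 4 members, Ass1, Arg1, Nags and Gls2, and it is the library with 11.2% of counts in 18S. Otc ran otherwise, with the lowest levels in control replicate 1 and PS-MP replicate 1. The ratio of Cps1 to Otc was accordingly 11.1, 5.49 and 6.60 in PS-MP, against 7.79, 4.70 and 4.78 in control, which overlap (log2 difference 0.40).

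**Figure D4:**
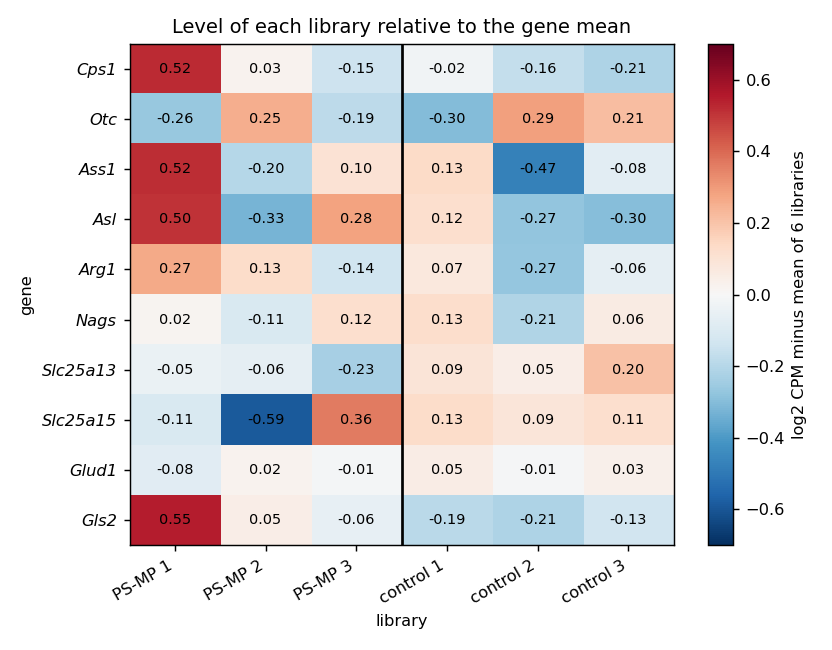
Log2 CPM of each member (rows) in each library (columns, PS-MP left of control) minus the mean of that gene over the 6 libraries, as colour and number. The column of PS-MP replicate 1 is above 0.25 for Cps1, Ass1, Asl, Arg1 and Gls2 and at -0.26 for Otc.

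The genes whose centred profile lay closest to the mean profile of the 5 enzymes over the 6 libraries were B4galnt1, Bin3 and Usf1, with root mean square distances of 0.03, 0.03 and 0.04 on the log2 scale. Among the enzymes, Arg1 lay closest at 0.10 and Otc farthest at 0.37. Since 52.9% of the 17662 genes lay as close as Otc, and libraries share their scaling, closeness of profile is a description only.

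Around the central vein, Glul, the main gene of ammonia capture, was at its lowest in the PS-MP libraries without passing the test. Glul had 560, 600 and 622 CPM in PS-MP, against 947, 655 and 1076 CPM in control. All 3 PS-MP libraries lay below the 3 control libraries, as for 4.99% of all genes tested, with a fitted log2 fold change of -0.59 (SE 0.20, interval -1.07 to -0.10, unadjusted p = 0.0243, edgeR adjusted p = 0.869). It stayed below 0 in all 6 fits that left out a library, between -0.77 and -0.43, and was -0.38 (SE 0.23) with library size alone.

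Of the 6 genes of pericentral ammonia capture, 0 passed in either direction, 4 lay below 0 and 2 above. The 4 below 0 are Glul, Rhbg, Slc1a4 and Oat, named by p-value or as partners, while the 2 above 0 are not named here. The median log2 fold change was -0.42, beside a median of 0.02 over all genes, of which 52.8% lay above 0. Glul alone of the 6 had an unadjusted p under 0.05, beside 5.38% of all genes. Rhbg, an ammonium transporter, had a fitted log2 fold change of -0.78 (interval -1.65 to 0.08, and -0.46 without control replicate 3), and Slc1a4, a neutral amino acid carrier, had -0.58 (interval -1.24 to 0.08). Oat, the ornithine aminotransferase of the same cells, had 1280, 1191 and 1029 CPM in PS-MP, against 1183, 1078 and 1946 CPM in control. Its log2 fold change of -0.26 rested on control replicate 3, without which it was 0.048.

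The ratio of Gls2 to Glul sets ammonia release near the portal vein beside ammonia capture near the central vein, and does not depend on scaling. It was 0.792, 0.521 and 0.467 in PS-MP, against 0.281, 0.398 and 0.256 in control. All 3 PS-MP ratios lay above all 3 control ratios, with a mean log2 difference of 0.92. Since Gls2 lay wholly higher and Glul wholly lower in PS-MP, their ratio had to separate the diets. A permutation test of it could then only give the smallest possible p of 0.1, so that p is not used as support. Without each library in turn this difference lay between 0.69 and 1.11.

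Averaged over the wider zonation markers, the difference between zones overlapped between the diets. Gls2 was the 1 of 13 periportal markers wholly higher in PS-MP, beside 6.24% of all genes tested, and 0 were wholly lower. Of 16 pericentral markers 2 were wholly lower, Glul among them, beside 4.99% of all genes tested, and 0 were wholly higher. The mean log2 CPM of 13 periportal markers minus that of 16 pericentral markers was 2.01, 1.22 and 1.52 in PS-MP, against 1.35, 1.48 and 1.23 in control. The difference of means was 0.23 (exact permutation p = 0.5) and 0.019 without PS-MP replicate 1 (exact permutation p = 0.8). Without PS-MP replicate 2 it was 0.41 (exact permutation p = 0.1, the smallest possible in that fit). With Gls2 and Glul taken out of the lists the difference was 0.18 (exact permutation p = 0.6). Taken alone, the periportal mean differed by -0.04 (exact permutation p = 0.9) and the pericentral mean by -0.27 (exact permutation p = 0.2), PS-MP minus control.

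**Figure D5:**
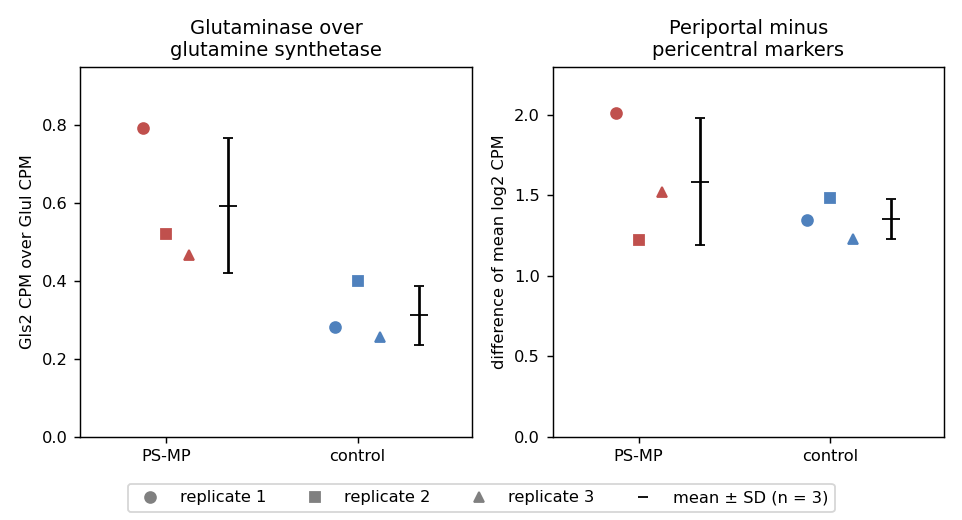
Left, Gls2 CPM divided by Glul CPM in each library; right, mean log2 CPM of periportal minus pericentral markers, PS-MP left of control, with mean ± SD of 3 libraries as a black bar. The ratios of 0.467 to 0.792 in PS-MP lie above those of 0.256 to 0.398 in control, while the marker differences overlap.

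Other genes of nitrogen handling gave no call over all genes in edgeR. In arginine, ornithine and polyamine use, 0 of 18 tested genes passed or had an unadjusted p under 0.05 (median log2 fold change -0.0011). Odc1, the first enzyme of polyamine synthesis, had -0.33 (interval -0.76 to 0.11), Amd1, which makes decarboxylated S-adenosylmethionine, 0.34 (interval -0.07 to 0.75), and Ddah1, which breaks down methylated arginine, -0.26 (interval -0.67 to 0.16).

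Among 21 tested enzymes of amino acid deamination and transamination, 0 passed and 1 had an unadjusted p under 0.05, beside 5.38% of all genes (median 0.00052). That gene was Amt, the aminomethyltransferase of the glycine cleavage system, which releases ammonia from glycine. Amt had 6.47, 7.24 and 6.36 CPM in PS-MP, against 19.6, 10.3 and 12.9 CPM in control, with all 3 PS-MP libraries below the control libraries, as for 4.99% of all genes. Its log2 fold change was -1.09 (SE 0.26, interval -1.71 to -0.48), with an adjusted p of 0.767 in edgeR and of 0.0235 in DESeq2.

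The transaminase genes Tat and Got1, which handle tyrosine and aspartate, had log2 fold changes of 0.48 (interval -0.04 to 0.997) and 0.49 (interval -0.14 to 1.12). Got1 had 389, 206 and 225 CPM in PS-MP, against 218, 172 and 194 CPM in control, with the same first PS-MP library on top as for Cps1 and Ass1. Its value was 0.15 without PS-MP replicate 1, and that of Tat 0.31 without control replicate 3.

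Of 19 tested genes of amino acid and urea transport, 0 passed or had an unadjusted p under 0.05 (median 0.05). The cationic amino acid carrier gene Slc7a2 had 823, 867 and 344 CPM in PS-MP, against 271, 535 and 510 CPM in control, with a wide interval (log2 fold change 0.63, -0.35 to 1.61). Aqp9, a channel for glycerol and urea, had -0.24 (interval -0.57 to 0.10), and Slc38a2, a neutral amino acid carrier, 0.31 (interval -0.15 to 0.76).

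Among the 5 carbonic anhydrase genes of bicarbonate supply, 0 passed or had an unadjusted p under 0.05 (median -0.13). Car5a, the mitochondrial carbonic anhydrase that supplies bicarbonate to the Cps1 step, had 67.9, 69.0 and 49.3 CPM in PS-MP, against 61.1, 50.4 and 78.8 CPM in control. These overlapped, with a fitted log2 fold change of -0.03 (interval -0.54 to 0.48), and 0.18 with library size alone. Car2 had -0.53 (interval -1.29 to 0.22), Car5b -0.29 (interval -0.92 to 0.34) and Car3 -0.13 (interval -0.69 to 0.43).

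Of 19 known or candidate regulators of the cycle, 0 passed (median log2 fold change 0.16). The mitochondrial deacetylase gene Sirt3, whose product acts on Otc, had -0.32 (interval -0.64 to 0.01), and -0.098 with library size alone. Foxa1, a low-count pioneer factor gene here, had 1.51 (interval -0.09 to 3.12), and 0.69 without PS-MP replicate 2.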

How the data were processed

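Liver RNA was made into libraries with a column kit, poly(A) selection and a directional kit, per the labels' protocols. The deposited files hold raw whole-number read counts per gene, unnormalised by their values. The submitters' processing notes name bcl2fastq and GRCm39; for the aligner, counter, annotation and strand setting, nothing is stated. Columns of the deposited series table equalled the 6 single-library files, which were used.

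Rows that shared a symbol (67 symbols) were added together. Genes were filtered with filterByExpr by diet, scaled by TMM and fitted with edgeR 4.0.16 in R 4.3.3 by the quasi-likelihood F test, diet as the single term, with Benjamini-Hochberg adjustment over the 17662 genes tested. The 95% intervals use the standard error and 6.63 moderated degrees of freedom. Log2 CPM used a prior count of 2. Single values per library went into a two-sided exact permutation test over the 20 assignments of the 6 libraries to diets. With a library left out there were fewer assignments. Intervals cover the spread between libraries, and the depth of 68357478 to 112566641 counts leaves little counting error for the members. The fit was tested on simulated data.

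Members and lists were chosen with earlier results of these data known. Named genes were the 10 members, 7 fixed partners, the 3 smallest p of each of 6 lists, the 3 closest profiles and genes sharing sequence with members; some of these are not reported here. Alternatives used DESeq2 1.42.0, limma 3.58.1, other scalings and filters, the replicate number as a block and each library left out.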

Additional observations from a re-analysis of the deposited data

How the results depend on the processing

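For the 10 members, 77 of 80 values under 8 alternatives kept their direction, and 0 members were called under any of these or with a library left out. The 3 that turned did so with library size alone, at 0.089 for Otc, 0.037 for Slc25a15 and 0.17 for Glud1, as did Car5a (0.18), Car3 (0.095) and Glud-ps (0.18); that scaling also moved the median of the members to 0.30. Glud-ps, at 8 to 32 counts a library, was 0.074 with limma-voom and 0.088 with the replicate block. Members inside 1.5-fold numbered 4, and 2 to 5 with a library left out (2 without control replicate 1, 5 without PS-MP replicate 1); inside 2-fold they numbered 8 to 10 with a library left out, and 7 with library size alone. Of all genes, 2 were higher and 0 lower in PS-MP with edgeR; DESeq2 called 62 and 125, limma-voom 1 and 0, and the replicate block 0 and 0, and leaving out a library gave 0 to 3 higher (0 without control replicate 3, 1 without PS-MP replicate 1 or 3) and 0 to 1 lower (1 without control replicate 2). Amt, adjusted p 0.767 in edgeR, passed with DESeq2 at a log2 fold change of -1.10. Same-numbered replicates correlated at 0.11, 0.14 and -0.13 in their deviations across genes, and PS-MP replicates 1 and 2 but not 3 correlated best with their own number, so the numbers were not taken as pairs. The median of the members lay between 0.029 and 0.17 with a library left out, the enzyme sum between 0.078 and 0.32, and the zonation difference between 0.019 and 0.41.

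With a library left out, values that turned lay between -0.082 and 0.084 for Nags, -0.45 and 0.039 for Slc25a15, -0.43 and 0.048 for Oat, -0.17 and 0.16 for Car5a, -0.33 and 0.015 for Car3, -0.34 and 0.46 for Glud-ps, -0.10 and 0.44 for Gm43444, and -0.10 and 0.30 for Gm11586. Log2 ratios, chosen after seeing the data, lay between -0.13 and 0.078 for Ass1 to Asl, and -0.27 and 0.29 for Slc25a13 to Slc25a15. The causes were not tested.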
